A study of Bos taurus with 2 samples.

Results

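The 10 genes of adipocytes and lipid droplets followed here were CIDEA, CIDEC, GPD1, LEP, ADIPOQ, FABP4, PLIN1, LIPE, PNPLA2 and PPARG. They were found on the array by their gene symbol or by the RefSeq entry of the probe, which gave 23 of 43653 probes and 10 of 16959 named genes. The tissue was mammary gland of female Chinese Holstein cows in late lactation, with 1 array labelled mastitis and 1 labelled normal (healthy). The methods give 3 cows per condition and state that the cows with mastitis had received antibiotics, unlike the healthy ones, so disease and drug cannot be told apart. Which cow or cows lie behind either array is not given in the sources used here. With 1 array per condition no difference had a replicate check, no test across cows was possible and no p-value is given.

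Adipocytes store triglyceride in a large droplet and release it as fatty acids. PPARG is the nuclear receptor that drives their formation, PLIN1 and CIDEC sit on the droplet, the lipases PNPLA2 and LIPE cut stored triglyceride step by step, FABP4 carries fatty acids in the cytosol, GPD1 supplies the glycerol backbone, and LEP and ADIPOQ are hormones released into blood. Several of these genes are also used outside fat cells. In mice CIDEA acts in brown fat and in the milk-secreting epithelium, where lipid droplets are released as milk fat, and FABP4 is made in capillary endothelium and macrophages as well. The lactating gland holds little fat tissue beside its epithelium.

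The signal used was the net signal, the median pixel intensity of a spot minus 1 constant per array, 26 (mastitis) and 24 (normal). The file headers call this constant the mean of the negative controls. The 153 negative controls had a mean net signal of 0.013 (mastitis) and 1.95 (normal), so on the normal array the constant was below their mean. To count as well above background, a probe needed a spot located by the software and a net signal over 7.10 (mastitis) or 8.74 (normal), which lies 2.6 SD over the average negative control. Signals were scaled to the array's 75th percentile, 210 (mastitis) and 128 (normal), so a net signal 1.64 times as high on the mastitis array stands for no difference. Probes well above background on both arrays were averaged into a log2 ratio per gene, mastitis over normal. Its technical error is the SD over probes, pooled over all genes 0.45 on the log2 scale, and 0.17 over replicate spots of 41 probes. Over the 12245 genes measured in this way the median was -0.15. Each of the 23 probes had a single spot, and none was saturated.

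Of the 10 genes, 7 had a probe well above background on both arrays (72.2% of all named genes did), and they separated into 2 sets. CIDEA, GPD1, LEP and CIDEC were lower on the mastitis array by 2-fold or more, as were 9.14% of all measured genes. In bulk tissue, fewer cells of a type and less RNA per cell cannot be told apart. FABP4, PPARG and PNPLA2 were within 2-fold, and none of the 7 was at least 2-fold higher, against 2.26% of all measured genes. The counts were the same at 1.5-fold, which 21.5% of all measured genes passed downwards and 7.66% upwards, and at 3-fold, which 3.3% passed downwards and 0.547% upwards. Without scaling between the arrays the split was 2 higher and 2 lower, where 20.0% of all measured genes were higher and 2.63% lower by that much. ADIPOQ, PLIN1 and LIPE, genes typical of adipocytes, had no probe well above background on both arrays. Adipocyte is therefore used only as the name of the chosen list, and these values were not taken to show fat cells. Only CIDEA and GPD1 were at least 2-fold lower under every processing choice tried.

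**Figure D1:**
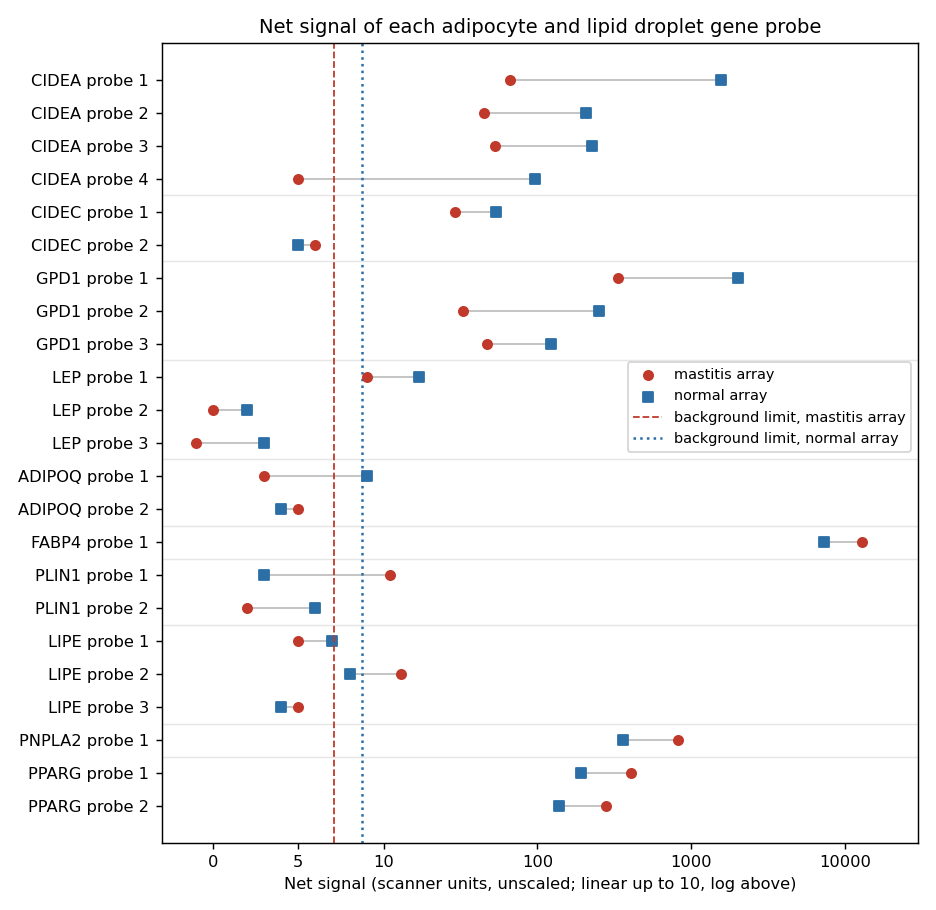
Unscaled net signal (horizontal axis, scanner units, linear up to 10 and logarithmic above) of each of the 23 probes on the mastitis array (red circles) and the normal array (blue squares), with probes numbered within a gene by their identifier. The vertical lines are the background limits of 7.10 (mastitis) and 8.74 (normal). The CIDEA and GPD1 probes lie well to the left on the mastitis array, and the ADIPOQ, PLIN1 and LIPE probes cluster at the limits on both.

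CIDEA, a lipid droplet protein that promotes droplet growth, had the lowest log2 ratio of the 7. Its probe 1 had a net signal of 66 (mastitis) and 1554 (normal). Probe 2 read 45 (mastitis) and 206 (normal), and probe 3 read 53 and 226 in the same order. Every CIDEA probe was dimmer on the mastitis array, by 38.6-fold, 7.51-fold and 7.0-fold after scaling for the 3 probes measured on both. Probe 4 read 5 on the mastitis array, not well above background, and 97 on the normal array. Set against the dimmest mastitis-array signal that was well above background, it was at least 19.9-fold lower. The gene's log2 ratio was -3.66 (SD over probes 1.39, 3 probes), or 12.7-fold lower, and 48 of the 12245 measured genes had a lower one. The probes shared the direction but not the size, so the fold is rough.

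GPD1, the cytosolic glycerol-3-phosphate dehydrogenase, was lower at all 3 of its probes. Probe 1 had a net signal of 332 (mastitis) and 2024 (normal), probe 2 had 33 (mastitis) and 250 (normal), and probe 3 had 47 (mastitis) and 122 (normal). After scaling the log2 ratios were -3.32, -3.64 and -2.09. The log2 ratio was -3.02 (SD over probes 0.82, 3 probes), or 8.09-fold lower, and 86 measured genes had a lower one. With the normexp background correction the gene was 4.50-fold lower. GPD1L, a second cytosolic glycerol-3-phosphate dehydrogenase, had a log2 ratio of -0.87 from 1 of 2 probes, with net signals of 36 (mastitis) and 40 (normal). The other GPD1L probe read 7 (mastitis) and 17 (normal), well above background on the normal array alone.

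CIDEC, which fuses droplets in white adipocytes, rested on 1 dim probe. That probe had a net signal of 29 (mastitis) and 54 (normal), a log2 ratio of -1.61 or 3.05-fold lower. Its second probe read 6 (mastitis) and 5 (normal), below the limits on both. The measured spot on the normal array was uneven: 1% of its pixels were saturated, and its mean pixel intensity, background subtracted, was 3174 with an SD over pixels of 12483, against a mean of 31 and an SD of 16 on the mastitis array. Taking the mean over pixels in place of the median moved the log2 ratio to -7.38. The difference was within 2-fold with the normexp correction and when arrays were left unscaled. It was so too with dim probes kept, a setting that raises every signal under a common floor to that floor. The second probe then entered as no difference, which by itself lowered the mean over probes. CIDEB, the third gene of the family, had net signals of 131 (mastitis) and 107 (normal) and a log2 ratio of -0.42.

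The hormone genes were at the edge of detection. LEP, the satiety hormone leptin, had 1 of 3 probes well above background on both arrays, with a net signal of 9 (mastitis) and 17 (normal). The other LEP probes read 0 and -1 (mastitis), against 2 and 3 (normal). The log2 ratio of -1.63 (3.10-fold lower) thus came from a spot no brighter on the mastitis array than the brightest negative control there, also 9. With the local background of the spot subtracted the net signals were 8 (mastitis) and 12 (normal), a log2 ratio of -1.32, and with the negative controls of each array set to a mean of 0 it was -1.48. Both ADIPOQ probes, for the insulin-sensitizing hormone adiponectin, stayed below the limits or were not found, reading 3 and 5 (mastitis), against 9 and 4 (normal). The software had not found the spot that read 9.

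PLIN1 and LIPE, the coat protein of the adipocyte droplet and the hormone-sensitive lipase, were likewise near background. PLIN1 probe 1 read 11 (mastitis) and 3 (normal), and probe 2 read 2 (mastitis) and 6 (normal). LIPE probe 2 read 13 (mastitis) and 8 (normal), which after scaling were 0.0619 and 0.0625 of the 75th percentile. The other LIPE probes read 5 and 5 (mastitis), against 7 and 4 (normal). The 7 probes of ADIPOQ, PLIN1 and LIPE spanned 2 to 13 on the mastitis array and 3 to 9 on the normal array, close to the range of the negative controls (-6 to 9 and -4 to 8 on the same arrays). For PLIN1 and LIPE 1 probe each passed the limit with mastitis alone, but too dim to give a lower bound of a fold. A level under these limits was not detectable, which does not show that it was absent.

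**Figure D2:**
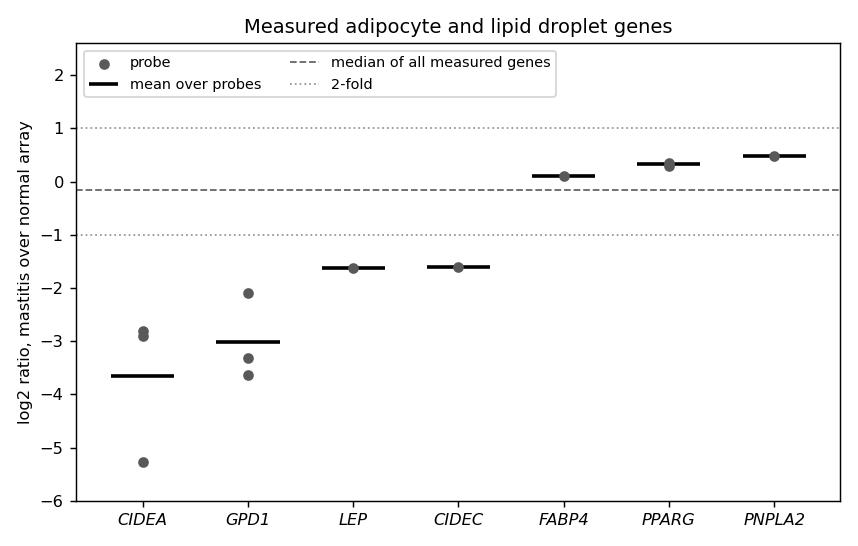
Log2 ratio (vertical axis, mastitis over normal array) of the 7 measured genes, with points for probes and bars for the mean over probes. A dashed line shows the all-gene median (-0.15) and the dotted lines mark 2-fold. CIDEA, GPD1, LEP and CIDEC lie below the lower dotted line, and FABP4, PPARG and PNPLA2 lie between the dashed line and the upper dotted line.

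FABP4, PPARG and PNPLA2 were measured at close levels on both arrays. FABP4, read by a single unsaturated probe, had a net signal of 12934 (mastitis) and 7277 (normal), a log2 ratio of 0.12 that is within the spread of replicate spots. PPARG read 405 and 277 at its probes on the mastitis array and 193 and 137 on the normal array, in the same probe order, a log2 ratio of 0.33 (SD over probes 0.04, 2 probes). PNPLA2, the lipase of the first step of lipolysis, read 824 (mastitis) and 359 (normal), a log2 ratio of 0.48 from 1 probe, just over the pooled SD of 0.45. All 3 stayed above 0 under every processing choice tried, between 0.09 and 1.20. Relative to the median of all genes they stood at 0.26, 0.48 and 0.63 in the order named.

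Of 16 other genes of lipid droplets, 12 were measured. By 2-fold or more, 5 were lower (9.14% of all measured genes were) and 1 higher (2.26%), with 6 within 2-fold. The median log2 ratio of the 12 was -0.69. Relative to the median of all genes this was -0.54, and between -0.63 and -0.32 over the processing choices that gave it. Log2 ratios were below 0 for 11 of the 12 (median of all genes -0.15), but for 5 without scaling (median of all genes 0.56). PLIN2, the coat protein of the milk lipid droplet, had a net signal of 416 (mastitis) and 1020 (normal) (4.02-fold lower, 1 probe). PLIN5, a perilipin of oxidative tissues, had 859 (mastitis) and 1829 (normal) (3.49-fold lower, 1 probe). BSCL2, which encodes seipin of the sites where droplets form, was lower by 3.42-fold (2 probes, SD 0.42 on the log2 scale), though within 2-fold with the normexp correction. Its probes were dim, at 40 and 9 (mastitis) against 68 and 23 (normal). The reading of 9 was no brighter than the brightest negative control of that array. PLIN3, a perilipin found in most tissues, was 2.15-fold lower (SD 0.05, 2 probes) and within 2-fold with normexp or with median, spike-in or no scaling. PLIN4, with 8 (mastitis) and 18 (normal), was well above background on the normal array alone. ABHD5 and G0S2, activator and inhibitor of PNPLA2, had log2 ratios of -0.16 and -0.27, and MGLL, the last lipase of the chain, -0.68.

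Transcription factors beside PPARG were mostly within 2-fold. Of 14 listed, 12 were measured, with 9 within 2-fold, 2 lower and 1 higher by that much, and a median of -0.34. Of all measured genes 9.14% were lower and 2.26% higher by that much. CEBPA, partner of PPARG in fat cell formation, had a log2 ratio of -0.30 (SD 0.50, 2 probes), and RXRA, with which PPARG binds DNA as a dimer, -0.37 (1 probe). STAT5B and STAT5A, which carry the prolactin signal in the gland, were 3.50-fold and 2.15-fold lower, the second within 2-fold under 8 of 13 alternatives. EBF1, a factor of fat precursor and B cells, was 2.05-fold higher (SD 0.04, 2 probes) and within 2-fold with normexp or with dim probes kept.

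Enzymes and transporters of adipocyte metabolism varied more widely. Of 21 listed, 19 were measured, with 6 lower and 1 higher by 2-fold or more and a median of -0.49. The shares of all measured genes lower and higher by that much were 9.14% and 2.26%. GPAM, which adds the first fatty acid to the glycerol-3-phosphate that GPD1 makes, was 6.22-fold lower (SD 0.18, 3 probes), with net signals of 17 to 302 on the mastitis array and 73 to 1015 on the normal array. LPL, which frees fatty acids from blood lipoproteins, had a log2 ratio of -2.00 (SD 0.24, 2 probes), and LGALS12, a galectin of adipocyte lipid droplets, was 3.09-fold lower from 1 probe (917 on the mastitis array, 1727 on the normal array) and within 2-fold without scaling. Unlike the probes of ADIPOQ, PLIN1 and LIPE, that of LGALS12 was well above background on both arrays. CD36, a fatty acid transporter, and FABP5, a relative of FABP4, had log2 ratios of -0.49 (SD 0.28) and -0.06 (SD 0.14).

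**Figure D3:**
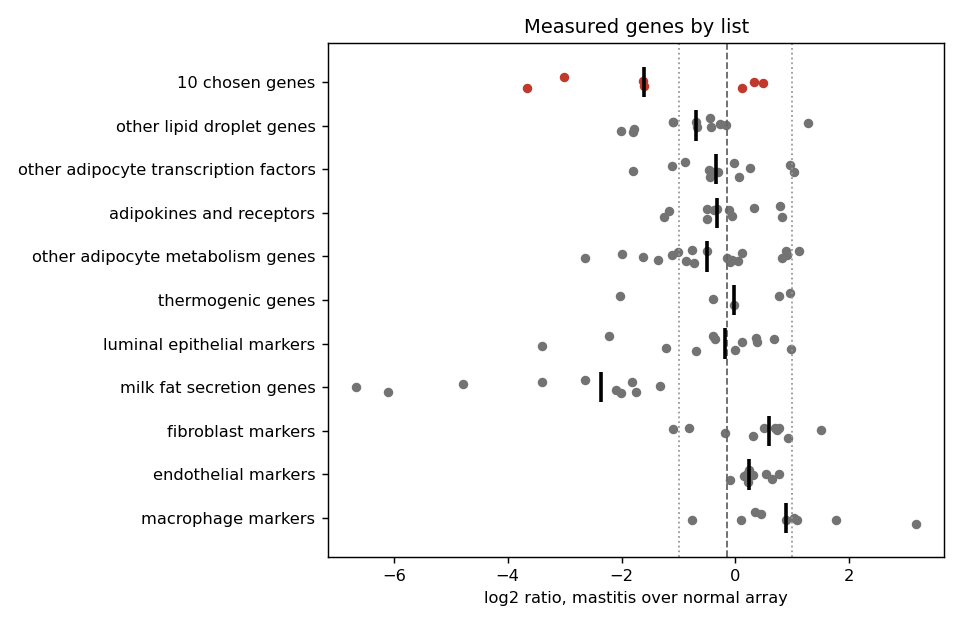
Log2 ratio (horizontal axis, mastitis over normal) of the measured genes among the 10 chosen genes (red) and in 10 other lists (grey). Points are genes, spread vertically for legibility, black bars are list medians, a dashed line shows the all-gene median (-0.15), and dotted lines mark 2-fold. All 10 milk fat secretion genes lie left of the lower 2-fold line, as do CIDEA, GPD1, LEP and CIDEC.

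The cell types that share these genes were followed by marker lists. Among all measured genes 9.14% were lower and 2.26% higher by 2-fold or more, 3.25% and 0.776% with normexp, and 2.63% and 20.0% without scaling. Of 10 genes of milk fat synthesis and secretion, which include PLIN2 and GPAM, all 10 were 2-fold or more lower on the mastitis array (9 with normexp, without scaling, with dim probes kept and in the deposited table, where ACACA was within 2-fold), with a median log2 ratio of -2.37 and a summed scaled signal of 63.1 (mastitis) and 318 (normal). Those sums weigh bright genes most, above all XDH, with net signals of 9828 (mastitis) and 21112 (normal) at 1 probe. Among the 10 genes, SCD was 27.6-fold lower (SD 0.39, 6 probes) and FABP3, the fatty acid carrier of the lactating epithelium, was 101-fold lower (SD 1.52, 4 probes). The range of this list, -6.66 to -1.33, was wide and held the log2 ratios of CIDEA, GPD1, LEP and CIDEC. That of the luminal epithelial markers, -3.40 to 0.97, held GPD1, LEP and CIDEC, and also FABP4, PPARG and PNPLA2. The ranges of the lipid droplet list (-2.01 to 1.27) and the metabolism list (-2.64 to 1.12) held LEP, CIDEC, FABP4, PPARG and PNPLA2. Ranges this wide do not tie a gene to a list. Of 12 luminal epithelial markers, 3 were lower by 2-fold or more and 0 higher, with a median of -0.18 and 6 above the median of all genes. Their sums of 92.1 (mastitis) and 146 (normal) weigh bright genes most, among them ELF5 (log2 ratio -2.22). MUC1 (-3.40) is in this list and in that of milk fat. All 9 measured endothelial markers were within 2-fold (without scaling 4 were higher), with a median of 0.23 and sums of 19.5 (mastitis) and 15.0 (normal). Of 9 measured macrophage markers 4 were at least 2-fold higher (3 with normexp, 7 without scaling), with a median of 0.89 and sums of 81.1 (mastitis) and 44.0 (normal). Of 10 fibroblast markers 1 was higher and 1 lower by 2-fold or more (7 and 0 without scaling), with a median of 0.60 and sums of 52.4 (mastitis) and 35.7 (normal). The part of these shifts in the values of CIDEA, GPD1 and FABP4 was not tested.

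**Figure D4:**
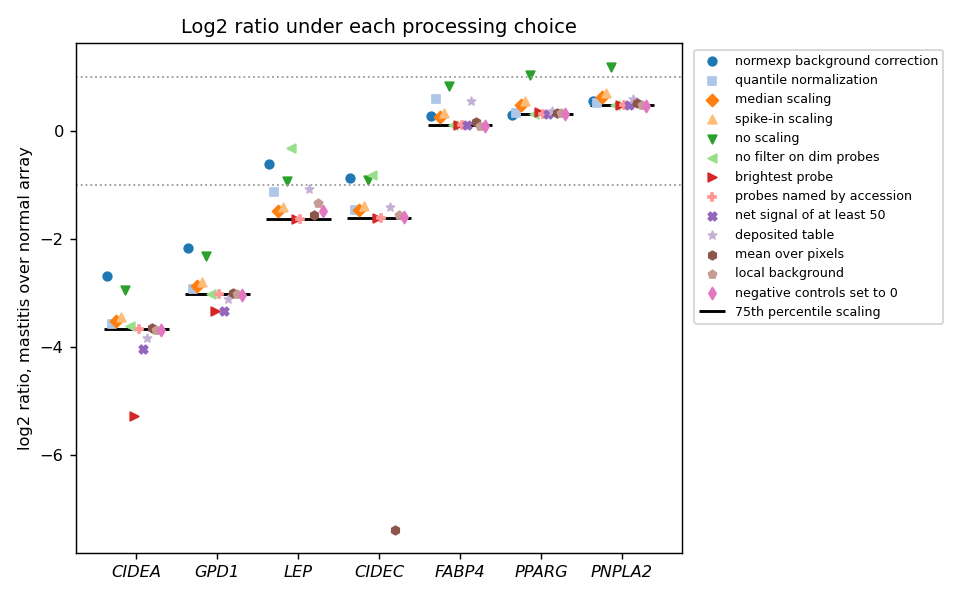
Log2 ratio (vertical axis, mastitis over normal array) of the 7 measured genes under the main processing (black bars, scaling by the 75th percentile) and under each alternative (symbols), with dotted lines at 2-fold. CIDEA and GPD1 stay below the lower line throughout, LEP and CIDEC cross it, CIDEC reaches -7.38 with the mean over pixels, and FABP4, PPARG and PNPLA2 stay above 0.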

How the data were processed

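Per the file headers, the arrays are an Agilent bovine design (023647) scanned at 532 nm and read with GenePix Pro 6.1, whereas Agilent Feature Extraction appears in the submitters' processing notes and an Affymetrix chip in the methods. The files are laid out as GenePix writes them, and the header names a different settings file for each array. Both arrays come from the same slide and scan. The authors deposited, per spot, unscaled intensity less a constant that the headers call the mean of the negative controls, the percent of saturated pixels and a flag, which is another score of spot quality. How the authors made the deposited log2 table is not given in the sources used here. Its column medians are 4.34 (mastitis) and 4.29 (normal), and its values follow the net signal of the probe listed 1 row further on (Spearman 1.00 across probes) and not that of the probe named (0.10 in both columns), so its rows were moved by 1 and it serves as an alternative only. Set against the scanner files it is on the log2 scale with higher meaning brighter, while its centring is unknown.

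Control spots were left out and spots of a probe averaged. A spot counted as saturated from 50% of its pixels. Of 43653 probes, 26743 were named by RefSeq accession, 5971 by symbol and 141 by synonym in RefSeq's gene table (assembly ARS-UCD2.0, no coordinates taken), 1662 keep the files' own name and 9136 are unnamed here. The genes and the 10 other lists were chosen with earlier results of these data known. Within those lists, genes at least 2-fold apart were named, but not all of them. Those left out include ACSL1, LDAH, several cell type markers and BTN1A1 (log2 ratio -6.11, SD 5.51, 2 probes). Up to 4 a list were planned, and 6 of the metabolism list and 5 of the lipid droplet list are given. The milk fat list also exceeds 4, with XDH named for its brightness. CEBPA, RXRA, CIDEB, GPD1L, ABHD5, G0S2, MGLL, PLIN4, CD36, FABP5, ADIPOR1, CFD, LEPR and UCP1 were named for their tie to the 10 genes after their values were seen. Only 1 array per condition limits the precision. The ratio step was tested on simulated data that held rises alone, with every signal kept above the background limit. That test therefore does not cover falls or probes near background. Python 3.11.15, numpy 2.4.6, pandas 2.3.3, matplotlib 3.10.9 and, for normexp (offset 50), limma 3.58.1 in R 4.3.3 were used.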

Additional observations from a re-analysis of the deposited data

How the results depend on the processing

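CIDEA and GPD1 stayed lower by 2-fold or more on the mastitis array under all 13 alternatives that gave a value. The 4 genes lower by 2-fold or more became 2 with the normexp correction (3.25% of all genes), without scaling (2.63%), without the filter on dim probes (4.74%) and with both net signals at 50 or above (6.16%), against 9.14% of all genes in the main setting. The count of 0 higher became 2 without scaling, where 20.0% of all genes were higher, against 2.26%. The median log2 ratio of the measured genes (-1.61) became -0.61 with normexp, -1.12 with quantile normalization, -0.90 without scaling, 0 without the filter (ADIPOQ, PLIN1 and LIPE enter at the floor), -1.06 in the deposited table and 0.12 with both net signals at 50 or above (LEP and CIDEC leave). LEP was at -0.61 with normexp, -1.12 with quantile normalization, -0.92 without scaling, -0.31 without the filter and -1.06 in the deposited table. CIDEC was at -0.86, -0.90 and -0.81 with normexp, without scaling and without the filter, and at -7.38 with the mean over pixels. GPD1 was at -2.17 with normexp and CIDEA at -5.27 with the brightest probe alone. FABP4 was at 0.59 with quantile normalization and 0.83 without scaling, where PNPLA2 was at 1.20 and PPARG at 1.04. Leaving out scaling adds 0.71 to every log2 ratio, and spike-in scaling moved the median of all genes to 0.08. Without the filter, signals under a common floor were raised to it, so probes under it on both arrays counted as no difference. The mastitis reading of LEP was itself raised in this way. The normexp correction adds an offset of 50 to both arrays, which brings dim readings closer in proportion before scaling. Calls of dim genes lost under these settings thus follow in part from the settings. The causes of the other moves were not tested. Fold thresholds of 1.5 and 3 left both counts as they were. The mean over pixels, the local background and the setting of negative controls to 0 were added after the data were seen. No paired analysis was possible because each condition has 1 array.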

Other observations

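A pair of genes moved opposite to their neighbours. HSD17B11, a short-chain dehydrogenase found on lipid droplets, was 2.41-fold higher on the mastitis array, with all 5 of its probes higher (SD of the log2 ratio 0.17) and net signals of 92 to 2155 on the mastitis array and 19 to 607 on the normal array. With normexp its log2 ratio was 0.94. AGPAT2, which adds the second fatty acid on the way to triglyceride, was 2.17-fold higher from 1 probe (1592 on the mastitis array, 447 on the normal array), while GPAM and the DGAT genes DGAT1 and DGAT2, of the first and last steps, had log2 ratios of -2.64, -1.36 and -1.12. The probes of DGAT1 differed widely (SD 1.15, 2 probes). Both DGAT genes were dim, at 8 to 46 (DGAT1) and 25 to 45 (DGAT2) on the mastitis array. On the normal array they read 22 to 41 and 30 to 70. Both were within 2-fold with normexp or without scaling. DGAT1 was so too with dim probes kept, the brightest probe or the local background. The same held for DGAT2 with quantile, median or spike-in scaling and in the deposited table.

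Of 12 adipokine and receptor genes, 11 were measured, with 2 at least 2-fold lower, none at least 2-fold higher and a median of -0.33. Shares of 9.14% and 2.26% of all measured genes were lower and higher by that much. ADIPOR2, a receptor of adiponectin, was 2.39-fold lower (SD 0.25, 2 probes; -0.80 with normexp and -0.55 without scaling) and ADIPOR1 had a log2 ratio of -0.33 (SD 0.25, 2 probes). APLN, which encodes apelin, was 2.26-fold lower from 1 probe, but within 2-fold with normexp, spike-in scaling, no scaling and in the deposited table. CFD, the adipokine adipsin, had log2 ratios that agreed between its probes (-0.11, SD 0.02), with net signals of 188 and 2353 on the mastitis array and 122 and 1561 on the normal array. No probe of the leptin receptor gene LEPR was well above background on both arrays. Of 8 thermogenic genes 5 were measured, with a median of -0.03 and 1 at least 2-fold lower, DIO2, which activates thyroid hormone (19 on the mastitis array, 47 on the normal array, 1 probe, log2 ratio -2.02, or -0.93 with normexp). UCP1, the uncoupler of brown fat, read -1 and 3 on the mastitis array and -1 and 1 on the normal array.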
